A study of Homo sapiens with 24 samples.

Results

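The 9 genes IGFL1, SLPI, CRCT1, LCE3D, CYP4B1, SLC34A2, KLHDC7A, NECAB1 and MAPK4 were read in large numbers in MDA-MB-231 cells carrying the MRTF-A mutant that the titles call dSRF, and almost never in any other line. They were picked as genes with next to no counts outside the dSRF libraries, so the members were chosen by their counts in dSRF against the other lines. That difference is given as a description, with no test. They are 9 of 37247 gene ids in the tables and 9 of the 14986 genes with enough counts to be tested.

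MDA-MB-231 is a human breast tumour line of mesenchymal type that lacks hormone receptors; ESR1 and PGR were at or near 0 in every group. The study grew 4 engineered lines: dSRF, dSAP and WT, which overexpress mutant or wild-type MRTF-A, and a control line. Every library, control included, is labelled as exposed to 1 ug/ml doxycycline for 72 h, and all cells had 10% serum. Cells were grown on matrigel (a gel of basement membrane proteins) with 2% matrigel in the medium (3D) or on plastic plates (2D), with 3 libraries for each line and culture and 24 in all. The labels do not spell out dSAP and dSRF, do not say whether a line is a clone or a pool, and do not say whether replicates were separate cultures, so p-values measure the spread between these libraries. The genotype field disagrees with the titles in 16 of 24 libraries, and groups here follow the titles.

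MRTF-A, encoded by MRTFA, is held in the cytoplasm by monomeric actin and moves to the nucleus when actin polymerises, where it activates genes together with the DNA-binding factor SRF through a sequence called the CArG box. It also has a SAP domain, a fold that in other proteins can bind DNA. The 9 genes are not classical MRTF and SRF targets, which code mainly for actin and the contractile apparatus. Most are best known from other tissues. CRCT1 and LCE3D belong to the cornified surface of skin and mouth, and SLPI and IGFL1 to the secreted proteins of mucosa and skin. CYP4B1 is known for fatty acid and drug oxidation in lung, SLC34A2 for phosphate uptake in lung and gut, and NECAB1 from neurons. MAPK4 is an atypical kinase and KLHDC7A a kelch-repeat protein.

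1 library stood apart. MRTFA was at 663.7 CPM (counts scaled to library size with TMM) in the library labelled 3D dSRF 1, against 4840.3 and 4857 CPM in 3D dSRF 2 and 3, and averaged 3237 ± 107 CPM in 2D dSRF (SD, n = 3). Pairs of libraries within the other 7 groups differed by a chi-square of 2.51 to 7.92 per degree of freedom over genes. 3D dSRF 1 differed by 122 and 118 from 3D dSRF 2 and 3, which differed by 5.07 from each other. Counts of genes in 3D, and some of the 3D fold changes that it moved, are therefore also given without it. Other 3D fold changes below are given with all libraries only, and some of these moved as much. Total counts ran from 13968829 to 23023415 per library, and 3D dSRF 1 was the deepest. Of 12 epithelial or keratinocyte markers, the summed level was 6128 to 11045 CPM in 3D dSRF and 7868 to 8293 CPM in 2D dSRF. Most of it was KRT8, KRT18 and DSP. Control stood at 647 to 702 CPM in 3D and 1036 to 1115 CPM in 2D. The other lines lay between. WT was at 1194 to 1210 CPM in 3D and 1779 to 1813 CPM in 2D, and dSAP at 878 to 920 CPM and 1382 to 1451 CPM. The epithelial cadherin CDH1 went the other way in 2D, with 0.551 CPM in 2D dSRF, against 1.74 CPM in 2D control (log2 fold change -1.68 ± 0.45; adjusted p = 0.00308, edgeR), and was not called in 3D (0.366 CPM in 3D dSRF, against 0.169 CPM in 3D control). GRHL2 and ESRP1 had no count in 3D control, nor KRT5 and KRT14 in either control group. The 4 mesenchymal markers VIM, CD44, ZEB1 and AXL summed to 3515 to 3994 CPM in 3D dSRF and 3200 to 3450 CPM in 2D dSRF, against 4336 to 4602 CPM in 3D control and 4080 to 4535 CPM in 2D control. CD44 went the other way in 2D, at 1112 CPM in 2D dSRF, against 891 CPM in 2D control (log2 fold change 0.32 ± 0.05, adjusted p = 1.36e-05, edgeR). In 3D, CD44 and AXL were not called with all libraries (adjusted p = 0.0624 and 0.0507, edgeR). Without 3D dSRF 1, all 4 were lower in 3D. The part of these markers in the results below was not tested. In bulk RNA, more cells expressing a gene and more RNA per cell cannot be told apart.

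IGFL1 (ENSG00000188293) codes for a small secreted protein of the insulin growth factor-like family, which is made in skin. It lies on chromosome 19 from 46229752 to 46231243 on the plus strand (GRCh38). It had 779, 2193 and 2295 TPM (a level scaled for depth and transcript length) in 3D dSRF 1, 2 and 3, and 2682, 2813 and 2524 TPM in 2D dSRF. The other 18 libraries held 2 counts of IGFL1 in all, both in 3D WT. By mean TPM it ranked 34 of all 37247 gene ids in 3D dSRF and 15 in 2D dSRF, among the most abundant transcripts of these cells. IGFL1 alone held 0.0542% of all counts in 3D dSRF and 0.0883% in 2D dSRF.

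SLPI (ENSG00000124107, chromosome 20, 45252239 to 45254564, minus strand) codes for a secreted inhibitor of neutrophil elastase found in mucus and saliva. It had 9.27, 58.4 and 71.7 TPM in 3D dSRF 1, 2 and 3, and 22.9, 31.4 and 23.2 TPM in 2D dSRF. The highest of the other 18 libraries reached 0.544 TPM, and the 18 held 6 counts in all. That gap between dSRF and the other lines is a description, since SLPI was picked for next to no counts outside dSRF.

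CRCT1 and LCE3D belong to the epidermal differentiation complex, a cluster of genes on chromosome 1 that build the cornified envelope, the protein shell of dead surface keratinocytes. CRCT1 (ENSG00000169509, 152514502 to 152516010, plus strand), a cysteine-rich protein, had 71.8, 532 and 493 TPM in 3D dSRF 1, 2 and 3, and 175, 165 and 164 TPM in 2D dSRF. LCE3D (ENSG00000163202, 152579381 to 152580504, minus strand), a late cornified envelope protein, had 15.0, 373 and 386 TPM in 3D dSRF 1, 2 and 3, and 199, 190 and 187 TPM in 2D dSRF. Outside dSRF, CRCT1 had 1 count over 18 libraries and LCE3D had 0. For LCE3D a count of 0 allows up to 0.00923 CPM over those libraries (3 counts, counting error only). The LCE3 genes are near-identical copies, so how reads were divided between them is uncertain.

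CYP4B1 (ENSG00000142973, chromosome 1, 46757838 to 46819413, plus strand) is a cytochrome P450 that oxidises fatty acids and some toxins, best known from lung. It had 25.5, 80.3 and 90.6 TPM in 3D dSRF 1, 2 and 3, and 152, 145 and 145 TPM in 2D dSRF. SLC34A2 (ENSG00000157765, chromosome 4, 25648011 to 25678748, plus strand), the sodium-phosphate cotransporter of lung and gut epithelium, had 0.712, 7.27 and 8.76 TPM in 3D dSRF 1, 2 and 3, and 16.8, 19.7 and 18.4 TPM in 2D dSRF. Unlike the cornified genes, both were lower in every 3D than in every 2D dSRF library. Over the other 18 libraries CYP4B1 had 2 counts and SLC34A2 had 1.

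KLHDC7A (ENSG00000179023, chromosome 1, 18480982 to 18486126, plus strand), a kelch-repeat protein, had 1.11, 26.9 and 25.9 TPM in 3D dSRF 1, 2 and 3, and 14.4, 15.0 and 13.8 TPM in 2D dSRF. NECAB1 (ENSG00000123119, chromosome 8, 90791550 to 90959408, plus strand), a neuronal calcium-binding protein, had 5.97, 35.6 and 40.5 TPM in 3D dSRF 1, 2 and 3, and 23.2, 23.1 and 24.1 TPM in 2D dSRF. MAPK4 (ENSG00000141639, chromosome 18, 50560078 to 50731824, plus strand), an atypical MAP kinase, had 0.659, 12.1 and 12.3 TPM in 3D dSRF 1, 2 and 3, and 8.02, 7.42 and 8.03 TPM in 2D dSRF. In all 3 genes the first 3D library was below every 2D library and the other 3D libraries were above. NECAB1 was the least silent elsewhere, with 14 counts spread over 9 of the 18 other libraries and at most 3 in a library. TMEM64 overlaps NECAB1 on the opposite strand, and the use of strand in counting is not stated. TMEM64 averaged 131 CPM in 3D dSRF and 131 CPM in 2D dSRF, against 55.6 CPM in 3D control and 54.2 CPM in 2D control.

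**Figure D1:**
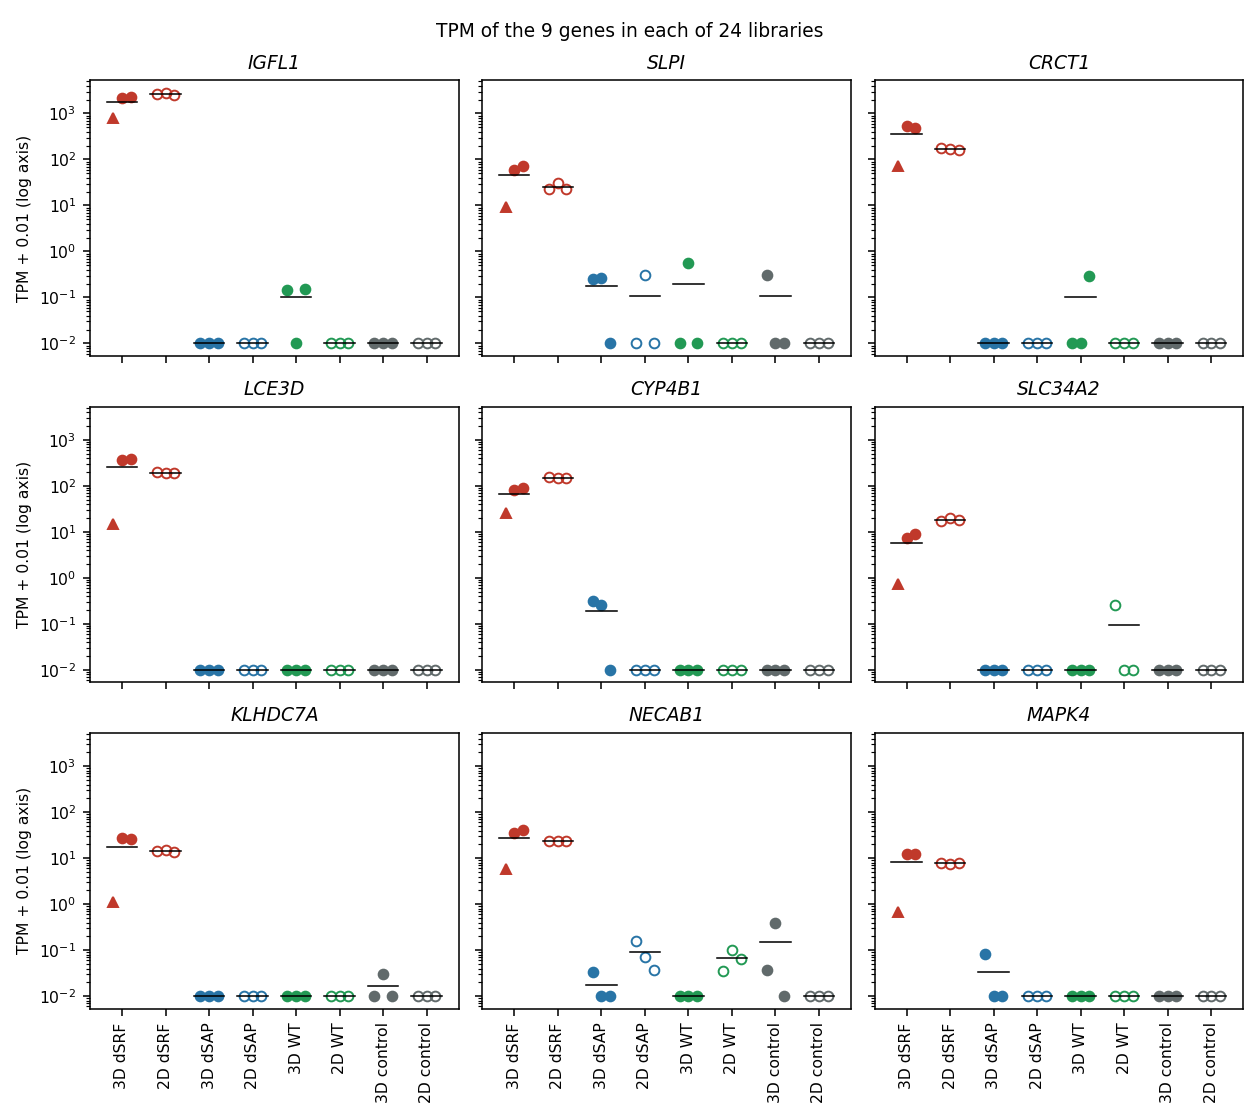
TPM plus 0.01 on a log axis for each of the 9 genes in each of 24 libraries; points are libraries (the triangle is the library labelled 3D dSRF 1), filled for 3D and open for 2D, and bars are group means. Every dSRF library lies above every library of dSAP, WT and control, where the genes were picked for next to no counts. The triangle lies below the other 3D dSRF libraries in each panel.

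As a lower bound against the 2D control libraries, which held 0 counts of all 9 genes, the pooled 2D dSRF level was at least 15717-fold higher for IGFL1, at least 2452-fold for CYP4B1 and at least 858-fold for NECAB1. The bound was at least 734-fold for KLHDC7A, 664-fold for LCE3D, 474-fold for CRCT1, 423-fold for SLC34A2, 284-fold for MAPK4 and 95.8-fold for SLPI. It takes 3 counts over the control group as the floor. In 3D control KLHDC7A had 1 count, NECAB1 3 and SLPI 1, and the other 6 genes had 0. Few genes were on in WT alone, dSAP alone or control alone. A gene on in both WT and dSAP counts for neither line under the rule that follows. In all, 277 genes were under 0.5 CPM in each of the 18 other libraries and at a mean of at least 1 CPM in a dSRF group, while 3 genes met the same rule for dSAP, 4 for WT and 4 for control. The count for dSRF was 168 with a limit of 0.25 CPM in the other lines, 56 with a mean of at least 5 CPM and 28 with a mean of at least 10 CPM. By mean CPM over the dSRF groups, IGFL1, CYP4B1, NECAB1, KLHDC7A, LCE3D and CRCT1 ranked 1 to 6 of the 277, MAPK4 13, SLC34A2 14 and SLPI 31. The genes nearest to them in level that are not among the 9 were the hedgehog ligand SHH at 31.9 CPM, the ubiquitin ligase DTX4 at 30.4 CPM, the clotting factor VWF at 22.2 CPM and the sialyltransferase ST6GAL1 at 18.7 CPM. RCAN2, BMP2, MT1B, SULT1C2, FOXA1 and XCR1 followed, at 16.9 to 13.1 CPM. MT1B is one of a family of near-identical metallothioneins and is uncertain.

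**Figure D2:**
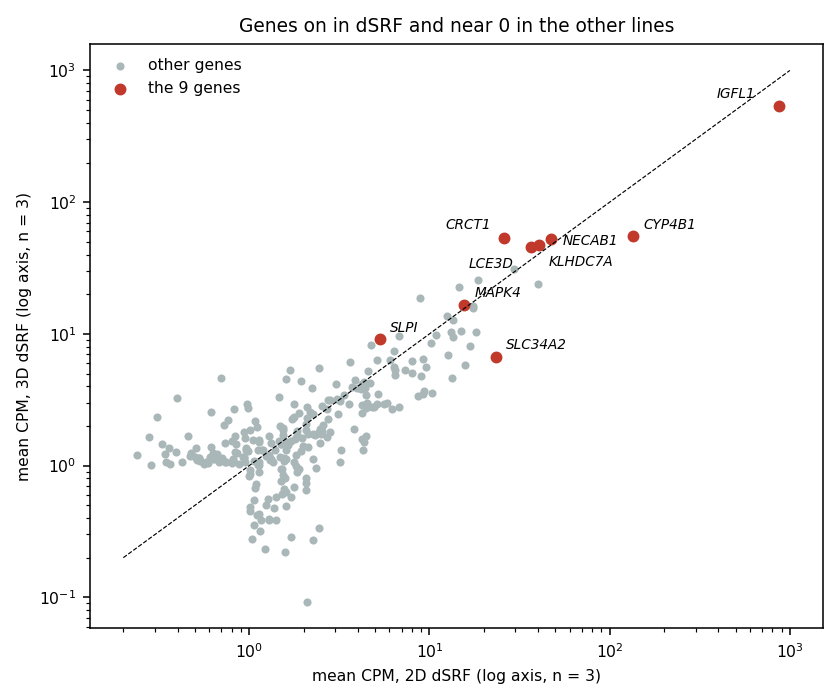
Mean CPM in 3D dSRF (vertical) against 2D dSRF (horizontal), both on log axes with n = 3, for the 277 genes under 0.5 CPM in all 18 libraries of other lines; the dashed line marks equal levels. IGFL1 lies alone at the top right, and CYP4B1 and SLC34A2 lie below the line.

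The genes whose pattern over the 24 libraries was most like the mean of the 9 were FOLH1, the prostate membrane folate hydrolase, with a Pearson r of 0.999, then CEACAMP9, SLAMF1, DCDC2, MT1B, SQOR, GAS2L2, PROS1, PRDM9 and KCNK1 (r = 0.994 for the last). The likeness was taken on log2 CPM and rests on the same split of lines that chose the 9. SQOR, a mitochondrial sulfide oxidase, and PROS1, an anticoagulant, were not silent elsewhere. SQOR averaged 114 CPM in 2D dSRF, against 16.4 CPM in 2D control, and PROS1 190 CPM in 2D dSRF, against 45.3 CPM in 2D control.

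In 3D dSRF 1, where MRTFA was at 13.7% of the mean of 3D dSRF 2 and 3, each of the 9 genes was also low. LCE3D stood at 4.29% of that mean, KLHDC7A at 4.59%, MAPK4 at 6.56% and SLC34A2 at 7.07%. CRCT1 stood at 14.7%, SLPI at 15.3%, NECAB1 at 16.2%, CYP4B1 at 36.4% and IGFL1 at 37.9%. Over all 14986 genes tested the median was 98.7%, and 13.6% of genes were under 50%. The other 268 genes of the dSRF-only pattern had a median of 16.8%, beside 14.7% for the 9. SRF itself was at 135%. The 9 levels in this library still lay above every library of another line, where the genes were picked for next to no counts. The closest was SLC34A2 at 0.688 CPM, against at most 0.0600 CPM elsewhere. That this library is also the one with less MRTFA was measured; its part in the low levels was not tested.

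**Figure D3:**
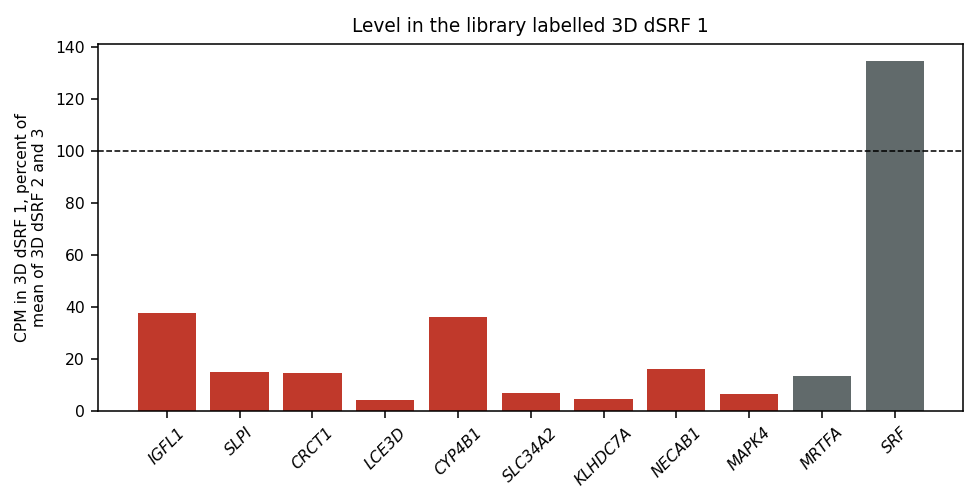
CPM in the library labelled 3D dSRF 1 as a percentage of the mean of 3D dSRF 2 and 3, for the 9 genes (red) and for MRTFA and SRF (grey); the dashed line marks 100%. The 9 genes lie between 4.29% and 37.9%, MRTFA at 13.7% and SRF at 135%.

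The comparison of 3D with 2D within the dSRF line did not choose the 9 genes, and what it showed depended on 1 library. With all 24 libraries, CYP4B1 was the only one called, at a log2 fold change of -1.30 ± 0.32 in 3D dSRF over 2D dSRF (SE, n = 3 each; adjusted p = 0.0266 in edgeR's quasi-likelihood test with Benjamini-Hochberg adjustment), where 17.0% of all genes tested were called. Its call was lost when any 2D dSRF library or 3D dSRF 2 was left out (adjusted p = 0.0549 to 0.0682 in edgeR). SLC34A2 had the largest fold change, at -1.80 ± 0.71, and did not pass (adjusted p = 0.126, edgeR), nor did CRCT1 at 1.03 ± 0.57. Without 3D dSRF 1, a choice made after seeing that library, 9 of 9 were called by edgeR, where 48.2% of all genes tested were (19.8% higher and 28.4% lower). The 3D group was then 3D dSRF 2 and 3 only. MRTFA was higher there too, at 4840.3 and 4857 CPM, against a mean of 3237 CPM in 2D dSRF. Culture and MRTFA level thus differed together, and their separate parts in these fold changes were not tested. Without 3D dSRF 1, CRCT1 rose by 1.51 ± 0.13, SLPI by 1.24 ± 0.34, LCE3D by 0.87 ± 0.10 and KLHDC7A by 0.77 ± 0.11 in 3D over 2D. MAPK4 rose by 0.63 ± 0.17 and NECAB1 by 0.62 ± 0.12. SLC34A2 fell by 1.26 ± 0.21, CYP4B1 by 0.96 ± 0.08 and IGFL1 by 0.36 ± 0.06. The 6 that rose include both cornified envelope genes and the secreted inhibitor, while the transporter, the P450 and IGFL1 fell. Of the other 268 genes of the dSRF-only pattern, 169 were higher in 3D dSRF 2 and 3 than in 2D dSRF.

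**Figure D4:**
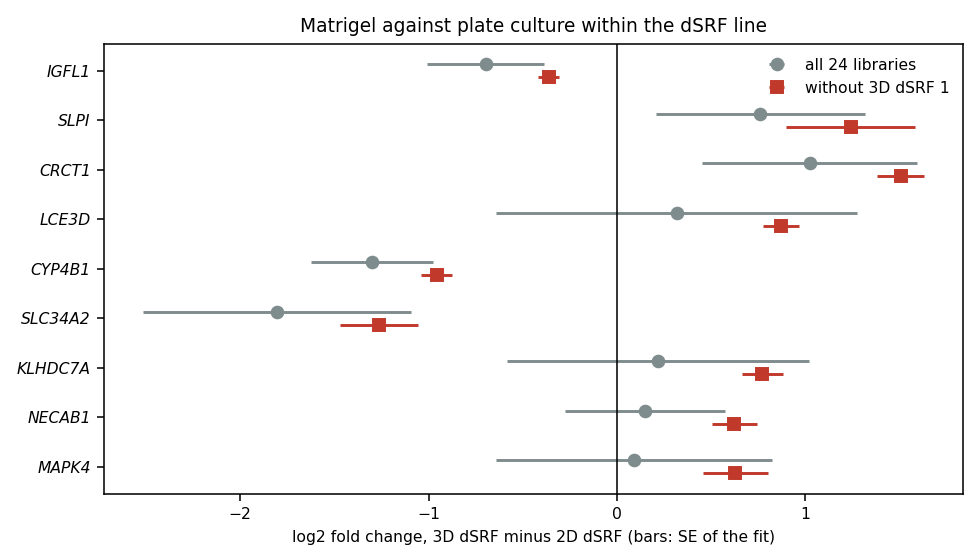
log2 fold change of 3D dSRF over 2D dSRF with the standard error of the fit, with all 24 libraries (grey circles) and without the library labelled 3D dSRF 1 (red squares). Without that library all 9 intervals are narrower, and IGFL1, CYP4B1 and SLC34A2 lie below 0 while the other 6 lie above.

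The sequence upstream of the start site was available from RefSeq (GRCh38.p14) for 6 of the 9 genes, with 7 start sites. It is shown for 4 genes to set promoters with a TATA-like element beside one made of GC boxes. Each is 250 bases, read 5′ to 3′ on the gene's strand up to the base before the start site. Capitals mark ATAAA in IGFL1 (chr19:46229492-46229741, plus) and LCE3D (chr1:152580517-152580766, minus), TATAAA in CYP4B1 (chr1:46798796-46799045, plus) and the GC box GGGCGG or its complement in MAPK4 (chr18:50559837-50560086, plus).
IGFL1: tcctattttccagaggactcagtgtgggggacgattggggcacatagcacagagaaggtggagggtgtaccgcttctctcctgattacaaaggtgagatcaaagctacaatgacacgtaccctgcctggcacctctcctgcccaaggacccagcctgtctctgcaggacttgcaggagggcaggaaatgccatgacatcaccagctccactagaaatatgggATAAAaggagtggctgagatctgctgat
CYP4B1: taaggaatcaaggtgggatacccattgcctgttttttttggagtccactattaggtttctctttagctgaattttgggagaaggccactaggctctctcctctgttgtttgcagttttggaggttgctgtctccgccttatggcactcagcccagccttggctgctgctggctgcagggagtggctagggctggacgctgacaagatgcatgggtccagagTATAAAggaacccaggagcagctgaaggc
LCE3D: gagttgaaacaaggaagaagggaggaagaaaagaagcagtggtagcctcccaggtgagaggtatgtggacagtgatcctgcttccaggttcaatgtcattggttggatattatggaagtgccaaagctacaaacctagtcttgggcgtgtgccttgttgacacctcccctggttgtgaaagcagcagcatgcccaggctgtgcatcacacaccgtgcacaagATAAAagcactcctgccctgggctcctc
MAPK4: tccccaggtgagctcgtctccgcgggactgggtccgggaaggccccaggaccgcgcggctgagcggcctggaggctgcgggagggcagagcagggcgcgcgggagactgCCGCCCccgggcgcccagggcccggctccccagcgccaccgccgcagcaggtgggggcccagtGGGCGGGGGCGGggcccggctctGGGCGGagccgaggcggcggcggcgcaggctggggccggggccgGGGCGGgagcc

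ATAAA began 28 bases before the start site in IGFL1, CYP4B1 and LCE3D, which is where a TATA box usually lies. Between 40 and 20 bases before the start, ATAAA was in 3 of the 7 sites and in 4.65% of 35116 RefSeq promoters. This window was chosen after the sequences were seen. On both strands of the 250 bases, the longer TATA box TATAAA was in CYP4B1 and in the second start site of SLC34A2, and in 10.7% of all promoters. The GC box was in KLHDC7A and 5 times in MAPK4, whose promoter is 83.2% G and C against a median of 58% over all promoters, and in 42.6% of all promoters. The CArG box, the site of SRF, was in none of the 7 and in 1.16% of all, and the AP-1 site TGACTCA or TGAGTCA was in none of the 7 and in 4.20% of all. The TEAD core CATTCC was in both SLC34A2 sites and in 11.9% of all. The RefSeq start of CYP4B1 lies 41208 bases inside the annotated gene, so these windows are one choice of start among several. A match says only that these letters are present.

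Genes related to the 9 by family or process were compared between dSRF and control, from 4 lists of 141 genes that were drawn up with earlier results of these data known. In 3D, 27 of 51 tested were higher in dSRF and 13 lower; in 2D, 27 were higher and 15 lower (edgeR, adjusted p under 0.05). Over all genes tested, 35.1% were higher and 31.3% lower in 3D dSRF than in 3D control, and 34.5% higher and 31.5% lower in 2D. Without 3D dSRF 1 the counts in 3D were 31 higher and 16 lower of 54. The share over all genes for dSRF over control without that library is not given here. These counts, and the later ones of this kind, thus have no matching share to be read against. Fold changes below are log2 of dSRF over control with the SE of the fit (n = 3 each).

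Of 57 cornified envelope genes, 49 were not tested for want of counts, 27 of them with no count in any library. The programme to which CRCT1 and LCE3D belong was thus mostly silent. Of the 8 tested, 4 rose and 3 fell in 3D, and 3 rose and 4 fell in 2D. In 3D, 4 were higher and 4 lower without 3D dSRF 1. LCE3A, next to LCE3D, averaged 2.51 ± 2.07 CPM in 3D dSRF and 1.89 ± 0.13 CPM in 2D dSRF (SD), with 0 counts in either control group. It was called by edgeR in both cultures, with adjusted p = 0.171 in 3D and 0.199 in 2D with DESeq2. The hair follicle protein TCHH was at 0.0859, 5.87 and 5.57 CPM in 3D dSRF 1, 2 and 3 and averaged 5.18 CPM in 2D dSRF, against 0.217 CPM in 3D control and 0 counts in 2D control. CRNN, a squamous epithelial protein, averaged 0.233 CPM in 3D dSRF and 1.22 CPM in 2D dSRF, against 0 counts in 3D control and 3 counts in 2D control. The cross-linking enzyme TGM5 rose in 3D (2.09 ± 0.61) and stood at 1.53 ± 0.70 in 2D, short of the threshold. TGM5 was at 0.172, 1.92 and 1.53 CPM in 3D dSRF 1, 2 and 3, against 0.234 to 0.301 CPM in 3D control. The cross-linking enzyme TGM1 fell by 1.07 ± 0.27 in 3D and 1.56 ± 0.28 in 2D, CNFN by 0.95 ± 0.29 and 1.66 ± 0.28, and the suprabasal keratin KRT10 by 0.31 ± 0.09 and 0.27 ± 0.09. FLG, the filament-aggregating protein of the granular layer, fell by 0.81 ± 0.29 in 2D and stood at 0.62 ± 0.44 in 3D, where 3D dSRF 1 alone was high (8.90, 2.30 and 1.18 CPM in 3D dSRF 1, 2 and 3, against 2.56 to 2.92 CPM in 3D control). Without 3D dSRF 1 it was -0.70 in 3D (adjusted p = 0.0271, edgeR). The 2D call of FLG was lost when 2D control 3, 2D dSRF 1 or 2D dSRF 2 was left out (adjusted p = 0.0537 to 0.0741, edgeR), that of KRT10 without 2D control 3 (0.0789), and the 3D call of TGM1 with limma on TPM (adjusted p = 0.157 and 0.181). KRT10 was at -0.49 in 3D without 3D dSRF 1.

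Secreted and mucosal genes, the group of SLPI, moved mostly one way: of 11 tested of 30, 7 rose and 1 fell in each culture. Without 3D dSRF 1, 9 were higher and 1 lower of 12 in 3D. WFDC2, a whey acidic protein close to SLPI in the genome and in structure, was at 12.4, 32.8 and 32.4 CPM in 3D dSRF and 31.8, 36.2 and 30.4 CPM in 2D dSRF, against 0.150 to 0.464 CPM in 3D control and 0.257 to 0.583 CPM in 2D control. That is a rise of 6.51 ± 0.45 in 3D and 6.33 ± 0.43 in 2D. The iron-binding lipocalin LCN2 rose by 3.42 ± 0.14 in 3D and 3.10 ± 0.14 in 2D, to 473 CPM in 3D dSRF and 810 CPM in 2D dSRF, against 44.3 CPM in 3D control and 94.2 CPM in 2D control. Lactoferrin, LTF, averaged 8.57 CPM in 3D dSRF and 8.57 CPM in 2D dSRF, against 1 count in 3D control and 0.397 CPM in 2D control. The cysteine protease inhibitor CST6 rose by 1.52 ± 0.23 in 3D and 2.63 ± 0.25 in 2D, WFDC3 by 2.87 ± 0.53 and 1.43 ± 0.52, and the protease inhibitor SERPINB1 by 1.16 ± 0.06 and 0.24 ± 0.06. WFDC3 was at 0.645, 5.07 and 5.28 CPM in 3D dSRF 1, 2 and 3, against 0.351 to 0.702 CPM in 3D control. The mucin MUC1 rose in 2D (1.26 ± 0.18) and stood at 0.24 ± 0.18 in 3D, or -0.10 without 3D dSRF 1. The water channel AQP3 fell by 1.74 ± 0.29 in 3D and 1.60 ± 0.24 in 2D, and was at -2.55 in 3D without 3D dSRF 1. The 2D call of WFDC3 was lost without 2D control 1, 2D control 2 or 2D dSRF 3 (adjusted p = 0.0618 to 0.0791, edgeR).

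Among relatives of the 9 by family, 6 of 12 tested rose and 2 fell in 3D, with or without 3D dSRF 1, and 8 rose and 2 fell in 2D. The P450s of the CYP4F group are near-identical copies and so uncertain. CYP4F2, CYP4F8 and CYP4F22 had too few counts to be tested. CYP4F11 rose by 5.26 ± 0.61 in 3D and 4.53 ± 0.61 in 2D. CYP4F12 averaged 1.22 CPM in 3D dSRF and 0.342 CPM in 2D dSRF, with 0 counts in either control group. In 3D dSRF 1, 2 and 3 CYP4F12 was at 0, 2.19 and 1.48 CPM, so 3D dSRF 1 had none either. CYP4V2, a relative in the same family, rose in 2D (1.10 ± 0.16) and stood at -0.32 ± 0.15 in 3D, or -0.07 without 3D dSRF 1. Among other phosphate carriers, SLC20A1 rose by 0.52 ± 0.05 in 3D and 0.64 ± 0.05 in 2D and SLC20A2 by 1.02 ± 0.08 and 0.50 ± 0.08. The phosphate exporter XPR1 rose in 3D (0.32 ± 0.09) and stood at 0.10 ± 0.09 in 2D. SLC34A3, the kidney paralogue of SLC34A2, fell by 1.45 ± 0.56 in 2D and stood at -0.89 ± 0.46 in 3D. MAPK6, the closest relative of MAPK4, fell by 0.52 ± 0.18 in 3D and 0.53 ± 0.18 in 2D, while MAPKAPK5, the kinase both are known to bind, was at -0.16 ± 0.05 in 3D, a fall, and -0.01 ± 0.05 in 2D. IGFLR1, a receptor of the IGFL family, was present at a low level: it averaged 3.55 CPM in 3D dSRF, against 3.49 CPM in 3D control, and 5.02 CPM in 2D dSRF, against 2.94 CPM in 2D control, a rise of 0.77 ± 0.28 in 2D that did not pass in limma on TPM (adjusted p = 0.243 and 0.271). The IGFLR1 call was also lost without 2D control 1 (adjusted p = 0.0728, edgeR) or 2D dSRF 3, and the 2D call of CYP4F12 without 2D dSRF 1 (0.0561). That call of CYP4F12 was also lost with limma on TPM (adjusted p = 0.0603 and 0.329). The 2D call of SLC34A3 was lost without 2D control 2, 2D dSRF 1 or 2D dSRF 3 (adjusted p = 0.0744 to 0.114, edgeR). MAPK6 was not called in 3D without 3D dSRF 2 or 3 (0.108 for either) nor in 2D without 2D dSRF 1 (0.0508), and was at -1.01 in 3D without 3D dSRF 1, where XPR1 was at 0.16. The 3D call of XPR1 was lost with limma on TPM (adjusted p = 0.0659 and 0.0660).

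Of 29 regulators of epithelial differentiation, 20 were tested: 10 rose and 7 fell in 3D, and 9 rose and 8 fell in 2D. In 3D without 3D dSRF 1, 12 were higher and 9 lower of 22. FOXA1, a pioneer factor of luminal, lung and gut epithelium, was at 0.817, 19.5 and 18.2 CPM in 3D dSRF 1, 2 and 3 and averaged 13.5 ± 1.08 CPM in 2D dSRF (SD), against 1 count in 3D control and 0 in 2D control. It is itself one of the 277 genes silent in the other lines. CEBPA rose by 3.20 ± 0.73 in 3D and 4.73 ± 0.83 in 2D, GRHL1 by 1.29 ± 0.24 and 2.72 ± 0.26, HES1 by 1.46 ± 0.29 and 2.93 ± 0.34, and KLF4, a factor of the skin barrier, by 1.06 ± 0.10 and 1.04 ± 0.10. HES1 was at 7.56, 26.4 and 25.9 CPM in 3D dSRF 1, 2 and 3, against 6.84 to 7.66 CPM in 3D control. ELF3, an epithelial ETS factor, rose by 2.09 ± 0.34 in 3D and 0.83 ± 0.31 in 2D. GATA3, a luminal factor, fell by 0.93 ± 0.21 in 3D and 1.45 ± 0.21 in 2D. TFAP2C fell by 1.45 ± 0.11 in 3D and 1.25 ± 0.11 in 2D, CEBPD by 1.26 ± 0.25 and 1.43 ± 0.25, and NOTCH3 by 1.15 ± 0.32 and 1.70 ± 0.30. The NOTCH3 call was lost with limma on TPM in both cultures (adjusted p = 0.113 to 0.940). The 2D call of ELF3 was lost without 2D control 1, 2D control 2 or 2D dSRF 1 (adjusted p = 0.0523 to 0.0665, edgeR). GATA3 was at -1.48 in 3D without 3D dSRF 1.

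Some of these differences from control were present in WT and dSAP as well, and the genes given for this were chosen after their values were seen. SLC20A2 stood at 1.40 ± 0.08 in 3D and 1.81 ± 0.08 in 2D in WT over control, and at 0.88 ± 0.08 and 1.20 ± 0.08 in dSAP over control, so that in 2D both lines lay further above control than dSRF did. WFDC3 stood at 2.24 ± 0.53 in 3D and 1.68 ± 0.52 in 2D in WT over control, and at 1.56 ± 0.54 and 1.06 ± 0.53 in dSAP over control. LTF was at 3.02 ± 0.86 in 3D and 2.57 ± 0.39 in 2D in WT over control, called by edgeR in both. In dSAP over control LTF was at 2.50 ± 0.92 and 1.03 ± 0.42, not called in either culture. CEBPD was likewise at -0.69 ± 0.25 in 3D and -1.57 ± 0.25 in 2D in WT over control, and at -0.81 ± 0.25 and -0.91 ± 0.24 in dSAP over control. AQP3 had the opposite sign there, at 2.88 ± 0.22 in 3D and 1.53 ± 0.21 in 2D in WT over control, and at 2.84 ± 0.22 and 1.70 ± 0.21 in dSAP over control. The 3 lines share the control libraries, and no differences between the lines are tested here.

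**Figure D5:**
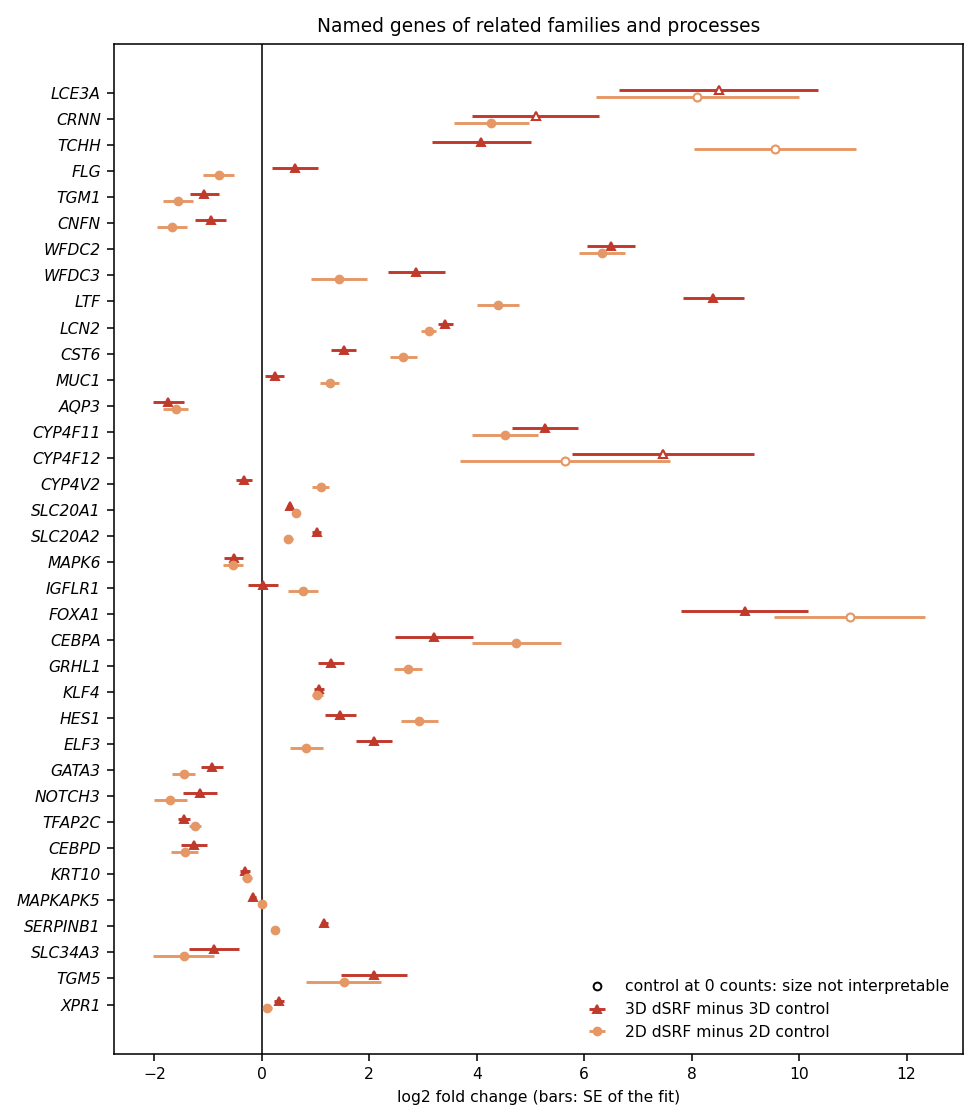
log2 fold change of dSRF over control with the standard error of the fit in 3D (triangles) and 2D (circles) for the named genes of the 4 lists. Open symbols mark genes with 0 counts in the control group, whose size cannot be interpreted. WFDC2, LTF, LCN2 and FOXA1 lie far right of 0, and TGM1, CNFN, AQP3, GATA3 and TFAP2C lie left of it in both cultures.

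Within 250 kb of the 9 genes lie 113 other genes, of which 32 had enough counts to be tested. In dSRF over control, 19 were higher and 5 lower in 3D, and 14 higher and 7 lower in 2D, next to the shares over all genes given above. Without 3D dSRF 1 the counts in 3D were 19 and 7, with no matching share over all genes given. KLHDC7A had no tested neighbour. Beside SLPI, where WFDC2 lies, 7 of 9 tested were higher and 1 lower in 3D, and 5 higher and 0 lower in 2D (edgeR). The 9 include SYS1, DBNDD2 and the joined gene SYS1-DBNDD2, which may share reads, so these counts are not independent. DBNDD2 there rose by 2.11 ± 0.06 in 3D and 1.43 ± 0.06 in 2D, and the potassium channel subunit KCNS1 rose in 3D (1.76 ± 0.45) and stood at -0.16 ± 0.40 in 2D. Beside MAPK4, the mitochondrial malic enzyme ME2 rose by 1.44 ± 0.05 in 3D and 1.59 ± 0.05 in 2D, and ELAC1 fell by 0.84 ± 0.24 in 2D and stood at -0.01 ± 0.23 in 3D. Beside CYP4B1, MOB3C rose by 1.24 ± 0.30 in 3D and 1.83 ± 0.31 in 2D, and ATPAF1 fell by 0.34 ± 0.05 and 0.28 ± 0.05. MOB3C was at 20.8, 86.0 and 81.9 CPM in 3D dSRF 1, 2 and 3, against 25.6 to 27.8 CPM in 3D control. Beside SLC34A2, SEL1L3 was at 1.33 CPM in 3D dSRF and 0.649 CPM in 2D dSRF, against 0.314 CPM in 3D control and 2 counts in 2D control, and ANAPC4 fell by 0.45 ± 0.09 in 3D and 0.27 ± 0.09 in 2D. SEL1L3 was at 0.344, 1.82 and 1.82 CPM in 3D dSRF 1, 2 and 3, against 0.234 to 0.406 CPM in 3D control. Beside IGFL1, CCDC61 fell by 0.54 ± 0.16 in 3D and 0.81 ± 0.17 in 2D, and beside NECAB1, PIP4P2 fell by 0.95 ± 0.11 and 0.43 ± 0.11. The ATPAF1 calls were lost with limma on TPM in both cultures (adjusted p = 0.233 to 0.569), as was the 3D call of SEL1L3 (0.0503 and 0.0886). The 3D call of CCDC61 was lost without 3D control 3 (adjusted p = 0.0605, edgeR) and the 2D call of ANAPC4 without 2D control 3 or 2D dSRF 3 (0.0524 and 0.0615).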

How the data were processed

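RNA was sequenced in 24 libraries of 4 MDA-MB-231 lines. Library preparation started from total RNA and removed ribosomal RNA, per the labels' protocols; the molecule field reads polyA RNA. The submitters' processing notes name FastQC, Salmon (11.3, as they write its version) and the hg38 build, which the authors used for the deposited tables. The deposited tables hold expected counts and TPM for 37247 gene ids. The gene annotation and the use of strand are not given in the sources used here. Symbols were matched for 34436 ids and GENCODE 29 positions for 34620.

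The deposited expected counts were rounded and fitted with edgeR 4.0.16 in R 4.3.3 (filterByExpr, TMM, robust quasi-likelihood, 8 groups from the titles, 16 residual degrees of freedom). Calls were made at 0.05 after Benjamini-Hochberg adjustment across 14986 tested genes. Levels in CPM are TMM-scaled; TPM values are the authors' own, as deposited. The common biological coefficient of variation was 13.1%. Scripts were tested on simulated data.

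The 9 genes, the related-gene lists and the tests were chosen with earlier results of these data known. Named related and neighbouring genes are those that the rule gives, except 1 that is not reported here: called in a culture, at least 1 CPM in a group, up to the 6 largest rises and 4 largest falls per list and culture, 46 in all. As alternatives, each library was left out, groups were taken from the genotype field, the fit was limited to the libraries compared, the replicate number was a block, DESeq2 1.42.0 or limma 3.58.1 (log2 of the deposited TPM plus 1 or 0.1) replaced edgeR, scaling was by RLE, or low counts were kept. Upstream sequence is from RefSeq, GRCh38.p14. Python 3.11.15 was used for tables and figures.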

Additional observations from a re-analysis of the deposited data

Results flagged for a closer look

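The effect of dSRF over control differed between cultures for 13 of the 46 named related and neighbouring genes in edgeR's test of the interaction. Benjamini-Hochberg adjustment was over all genes tested, of which 29.2% passed, a share close to that of the named genes. The values are the log2 effect in 3D minus that in 2D. The difference was positive for LTF (4.0), KCNS1 (1.92), FLG (1.42), ELF3 (1.26), SERPINB1 (0.92), DBNDD2 (0.68) and SLC20A2 (0.52). LTF is measured against 1 count in 3D control, so its size is loose. It was negative for HES1 (-1.47), GRHL1 (-1.43), CYP4V2 (-1.42), CST6 (-1.11), MUC1 (-1.03) and PIP4P2 (-0.52). FLG was at 0.62 in 3D and -0.81 in 2D, and PIP4P2 fell in both cultures and further in 3D. Without the library labelled 3D dSRF 1, FLG was at 0.11 (adjusted p = 0.823, edgeR) and no longer passed. The other 12 passed without it too. So did TCHH (-4.88), WFDC3 (1.94), ELAC1 (0.92), AQP3 (-0.95), MAPK6 (-0.47) and KRT10 (-0.22), which had not passed with it. TCHH is measured against 0 counts in 2D control, so its size is loose. The share of all genes that passed without that library is not given here. No cause was tested.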

How the results depend on the processing

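Groups from the genotype field gave 0 called genes for 3D dSRF over 2D dSRF, and 0 of the 9 genes, 0 related and 0 neighbouring genes in either culture. In edgeR 1825 genes then had an unadjusted p under 0.05 for 3D over 2D, 114 for dSRF over control in 3D and 71 in 2D, and no other tool was run on those groups. A fit of only the libraries compared called 0 genes and 0 of the 9 for 3D over 2D (1848 genes at an unadjusted p under 0.05, against 2551 called in all libraries and 2787 with DESeq2). For dSRF over control in 3D it called 24 of 40 related and 15 of 28 neighbouring genes tested. Over all genes tested in that fit, 6761 of 13989 were called. limma on TPM called 1609 genes with a pseudocount of 0.1 and 1693 with 1, and 2 of the 9 with each. With no filter on low counts 0 of the 9 were called (CYP4B1, adjusted p = 0.0909, edgeR). Leaving out a library called between 1599 and 7351 genes and between 0 and 9 of the 9; the 1599 came without 2D dSRF 3 and the 7351 without 3D dSRF 1. The cause was not tested.

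Same-numbered libraries of the dSRF and control groups compared deviated together with a correlation of -0.131 to 0.0543. WT and dSAP were not checked, and 3D dSRF 1 weighs on its group. This cannot show whether libraries were paired by number. With a replicate block 2362 genes and 1 of the 9 were called for 3D over 2D, 40 and 42 related genes in 3D and 2D, and 24 and 21 neighbouring genes.

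For 3D over 2D, with limma at pseudocounts of 0.1 and 1 and with the block, the sign turned for LCE3D (-0.57, -0.54, -0.29), KLHDC7A (-0.62, -0.40, -0.39), NECAB1 (-0.19, -0.16, -0.14) and MAPK4 (-0.70, -0.41, -0.38). None of these was called with all libraries. Leaving out a library gave LCE3D -0.11 to 0.87, KLHDC7A -0.17 to 0.77, NECAB1 -0.21 to 0.62 and MAPK4 -0.31 to 0.63.

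For dSRF over control, groups from the genotype field turned the sign of FLG (-0.0275), MUC1 (-0.28), CYP4V2 (0.011), ELAC1 (0.18) and SLC34A3 (0.20) in 3D, and of KCNS1 (0.25), MAPKAPK5 (0.025) and TGM5 (-0.37) in 2D. The sign also turned in 3D for IGFLR1 with the block (-0.0073), NOTCH3 with limma at a pseudocount of 1 (0.024), ELAC1 with DESeq2 (0.00084) and RLE (0.0049), and MAPKAPK5 with limma at 0.1 and 1 (0.076 and 0.075). In 2D MAPKAPK5 was at 0.0091 with DESeq2, 0.0069 with RLE, and 0.22 and 0.22 with limma at 0.1 and 1. Leaving out a library gave FLG -0.70 to 1.05, MUC1 -0.10 to 0.43, IGFLR1 -0.16 to 0.24 and ELAC1 -0.19 to 0.14 in 3D, and KCNS1 -0.55 to 0.18 and MAPKAPK5 -0.036 to 0.015 in 2D. The following 697 checks of single genes leave out the genotype field and the fits without a library. Of these, 633 kept direction and side of the threshold, 22 turned sign and 36 were no longer called. When a library was left out, 546 checks kept both, 21 turned sign and 26 were no longer called. Genes under about 1 CPM are limited by depth.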
